A study of Homo sapiens with 2 samples.

Results

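Epithelial and mesenchymal cells hold on to each other through gap, tight and adherens junctions, and 9 genes of these structures are described here: the connexins GJA1 and GJC1, the tight junction genes TJP1 and OCLN, the cadherins CDH1 and CDH2, the catenins CTNNB1 and JUP, and the adhesion molecule EPCAM. They were chosen by symbol when their levels and ratios in these same libraries were already known, so the values below describe these libraries and test nothing. The table lists 28038 genes, these 9 included. A minimum of 50 counts over both libraries was passed by 8 of them, all but CDH1, and by 14157 listed genes in all.

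RNA came from 1 culture overexpressing IGF2BP3, a protein that binds m6A-marked mRNA, and from 1 control culture that received a blank viral vector. Both are labelled OVCAR-3, a long-used cell line from a human ovarian carcinoma. The sources used here give neither the vector's promoter nor whether a culture was 1 clone or a pool. The comparison asks which transcripts differ when IGF2BP3 is overexpressed. IGF2BP3 itself had 6376 counts, or 133 CPM (counts scaled to library size), in the overexpression library and 2944 counts, 67.9 CPM, in the control library. Library totals were 48017861 and 43190215 counts. There was 1 library per group, so no difference has a replicate check, and the 95% intervals given with values cover counting error only.

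Markers of the labelled cell type were checked in the same table. Of 8 epithelial markers 7 were listed and only KRT18, at 4871 counts in the overexpression library and 4460 in the control library, reached 10 CPM. Of 7 markers of ovarian serous carcinoma only PAX8 (32 and 28 counts) was listed beside WFDC2 (0 counts, against 4 in control), and WT1, MUC16, MSLN, FOLR1 and SOX17 were not. The 4 mesenchymal markers VIM, FN1, ZEB1 and CDH2 summed to 2222 CPM in the overexpression library and 2248 CPM in the control library, nearly all from VIM, at 414 and 422 FPKM. Of these 4, 3 reached 10 CPM. FN1 did not, with 113 counts in the overexpression library and 131 in the control library. MUC1, the highest of 6 genes listed from a longer list of serous markers, was at 3.26 and 3.59 FPKM in the same order. Apart from KRT18, FN1 and MUC1, the levels of the listed markers thus go against the marker pattern of an epithelial ovarian carcinoma. Whether a gene without a row had no transcript was not tested, so such genes are not used for this reading. The identity of the cultures was not tested further. Endothelial markers summed to 0.0836 and 0 CPM over 4 genes, fibroblast markers to 0.648 and 0.808 CPM over 4, and leukocyte markers to 3.15 and 2.72 CPM over 3, mostly LCP1.

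Gap junctions are clusters of channels between neighbouring cells, each built from 2 rings of connexins, and Cx43, the product of GJA1, is the most widespread of them. Tight junctions seal the space between epithelial cells through claudins and occludin, which bind the scaffold ZO-1, the product of TJP1. Adherens junctions hold cells together through cadherins, whose tails bind beta-catenin or plakoglobin and, through alpha-catenin, the actin cytoskeleton. Loss of E-cadherin (CDH1) with gain of N-cadherin (CDH2) is a textbook mark of the epithelial to mesenchymal transition.

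Per transcript length, and among these 9 genes, the cultures held mainly beta-catenin and connexin mRNA and almost no E-cadherin mRNA. Of the 8 genes past the count minimum, GJA1 and OCLN were higher in the overexpression library by 1.5-fold or more, on the scale of CPM plus 1, and TJP1 was lower by as much. Every statement below on 1.5-fold uses that scale unless it says otherwise. Among all 14157 genes past the minimum, 1.02% were that much higher and 0.643% that much lower. The same 3 genes were also at least 2-fold different, as were 0.381% of all genes on the higher side and 0.297% on the lower side. Because the genes were chosen with these ratios known, nothing is read from that count. CTNNB1, GJC1, CDH2, JUP and EPCAM stood within 1.5-fold.

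Short stretches from these 3 genes are shown because they carry the motif matches found in their promoter windows, each of 250 bases before and 50 after a start from RefSeq on GRCh38.p14. Of the 9 genes, 6 had such a window (not GJC1, CDH1 and EPCAM), and the window nearest to the 5′ end of the gene in GENCODE was used. Capitals mark the match, and each stretch is read 5′ to 3′ on the gene's own strand.
GJA1: ctcctcccagtTGAGTCAgtggcttgaaac
OCLN: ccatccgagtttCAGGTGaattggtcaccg
TJP1: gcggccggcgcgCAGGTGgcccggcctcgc
The stretches lie at chr6:121435587-121435616 on the plus strand, chr5:69492502-69492531 on the plus strand and chr15:29969120-29969149 on the minus strand. The GJA1 match is to TGANTCA, the letters bound by AP-1 factors, and begins 48 bases before the start. The OCLN and TJP1 matches are to CAGGTG, or CACCTG on the other strand, the E-box bound by SNAI and ZEB repressors, and begin 33 and 88 bases before the start. Neither motif overlapped the other in these windows. TGANTCA was in 7.72% of 34943 promoter windows of this length and in 1 of the 6 windows here, and the E-box was in 20.6% of all windows and in 2 of the 6. Some genes had further windows, which gave other results. The other JUP window held 2 E-boxes and the other CDH2 window 1 TGANTCA, and both genes stood within 1.5-fold. The other OCLN window held 2 E-boxes, and the other TJP1 windows held neither motif. Positions count from the RefSeq start. In GENCODE the GJA1 and OCLN genes begin further upstream, so their stretches lie inside the annotated gene, and that of TJP1 lies upstream of it. A match describes letters only, and binding was not measured.

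**Figure D1:**
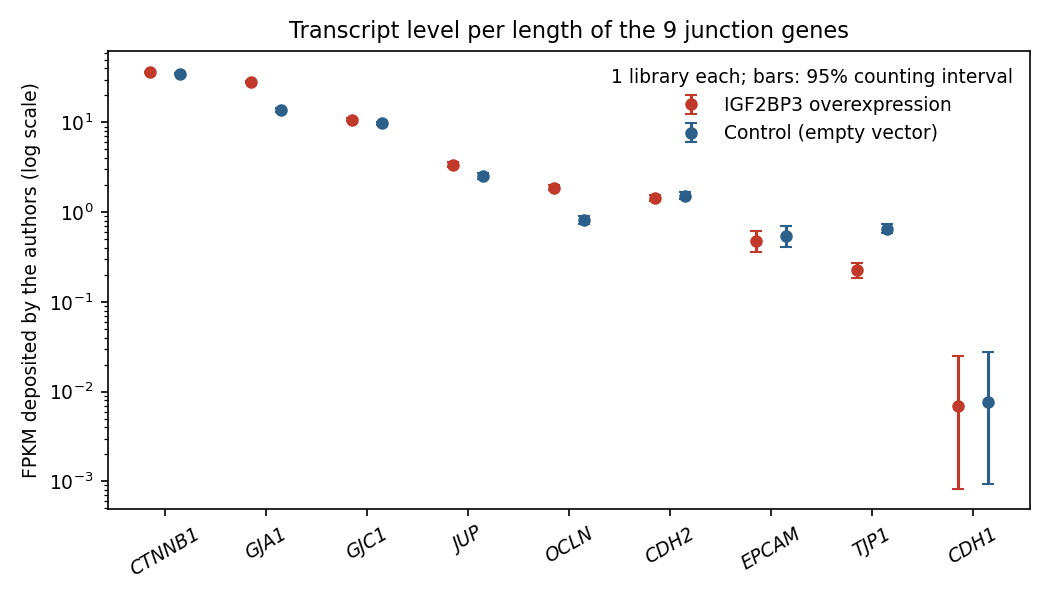
Transcript level of each gene as FPKM deposited by the authors, on a log axis, in the IGF2BP3 overexpression library (red) and the control library (blue), 1 library each, with 95% counting intervals as bars. CTNNB1 is highest in both at 36.4 and 34.8 FPKM and CDH1 lowest at 0.00686 and 0.00762 FPKM, and GJA1, OCLN and TJP1 are the genes whose points stand apart most.

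FPKM, which scales counts by gene length and library size, allows the genes to be ranked against each other. In the overexpression library the order was CTNNB1, GJA1, GJC1, JUP, OCLN, CDH2, EPCAM, TJP1 and CDH1, and no neighbouring pair had overlapping counting intervals. In the control library CDH2 stood above OCLN and TJP1 above EPCAM. There TJP1, at 0.655 FPKM, and EPCAM, at 0.543 FPKM, did not differ beyond counting error, nor did OCLN and TJP1 when counts were halved. By deposited FPKM, positions in the order moved by 1 place in each of these pairs, and the other 5 genes held the same place in both libraries. The places of OCLN and CDH2 depend on the gene length used, because the deposited FPKM implies longer genes than GENCODE for both. With GENCODE exonic lengths, an alternative chosen after seeing the data, OCLN would be at 3.11 in the overexpression library and 1.36 in the control library on the FPKM scale, and CDH2 at 2.51 and 2.65. OCLN then did not differ from JUP beyond counting error in the overexpression library, and CDH2 stood above JUP in the control library without differing from it beyond counting error. CTNNB1 was in the top 7.79% of genes past the minimum in the overexpression library and the top 8.22% in the control library, whereas TJP1 ranked at 94.1% and 82.3% from the top.

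GJA1 (ENSG00000152661; GRCh38 chromosome 6, 121435577 to 121449727, plus strand) had 4595 counts, 28.2 FPKM, in the overexpression library and 2026 counts, 13.8 FPKM, in the control library. The lower bound of the level was 27.4 FPKM in the overexpression library and the upper bound 14.4 FPKM in the control library, so the counting intervals did not overlap. The CPM ratio was 2.05-fold (1.95 to 2.16). With halved counts, used in case each read pair was counted once per mate, the interval was 1.91 to 2.21. On the log2 scale of CPM plus 1 the difference was 1.02, against a log2 fold change of 1.03 in the authors' deposited table. GJA1 shared 11.5% of its 31-base words with the pseudogene GJA1P1, which has no row in the table used here, and no exonic base with another annotated gene.

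GJC1 (ENSG00000182963; chromosome 17, 44798448 to 44830816, minus strand), which encodes the connexin Cx45, had 4501 counts, 10.8 FPKM, in the overexpression library and 3677 counts, 9.77 FPKM, in the control library. Its CPM ratio was 1.11-fold (1.06 to 1.16), a difference in level far smaller than that of GJA1. Per length, GJA1 stood 2.62 times above GJC1 (2.51 to 2.73) in the overexpression library and 1.41 times above it (1.34 to 1.49) in the control library. These ratios are taken within a library and do not depend on how the libraries were scaled. In bulk RNA, more cells with a transcript and more transcript per cell cannot be told apart.

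Of 21 connexin genes looked for, 13 were listed, and GJA1 and GJC1 made up nearly all of their summed FPKM. GJA1 held 69.4% of that sum in the overexpression library and 54.5% in the control library, and GJC1 26.5% and 38.5%. The next were GJB2 (Cx26), at 0.774 and 0.786 FPKM, and GJA3 (Cx46), with 142 counts in the overexpression library and 152 in the control library. The summed connexin level was 40.6 FPKM in the overexpression library and 25.4 FPKM in the control library. Pannexins form channels in the cell's own membrane and mostly not between cells. PANX1 was at 14.6 FPKM in the overexpression library and 13.4 FPKM in the control library, and PANX2 at 4.46 and 3.30 FPKM, a CPM ratio of 1.36-fold (1.21 to 1.54). Of the 14 other connexin and pannexin genes listed, 4 passed the count minimum, and none of them was 1.5-fold different in either direction.

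**Figure D2:**
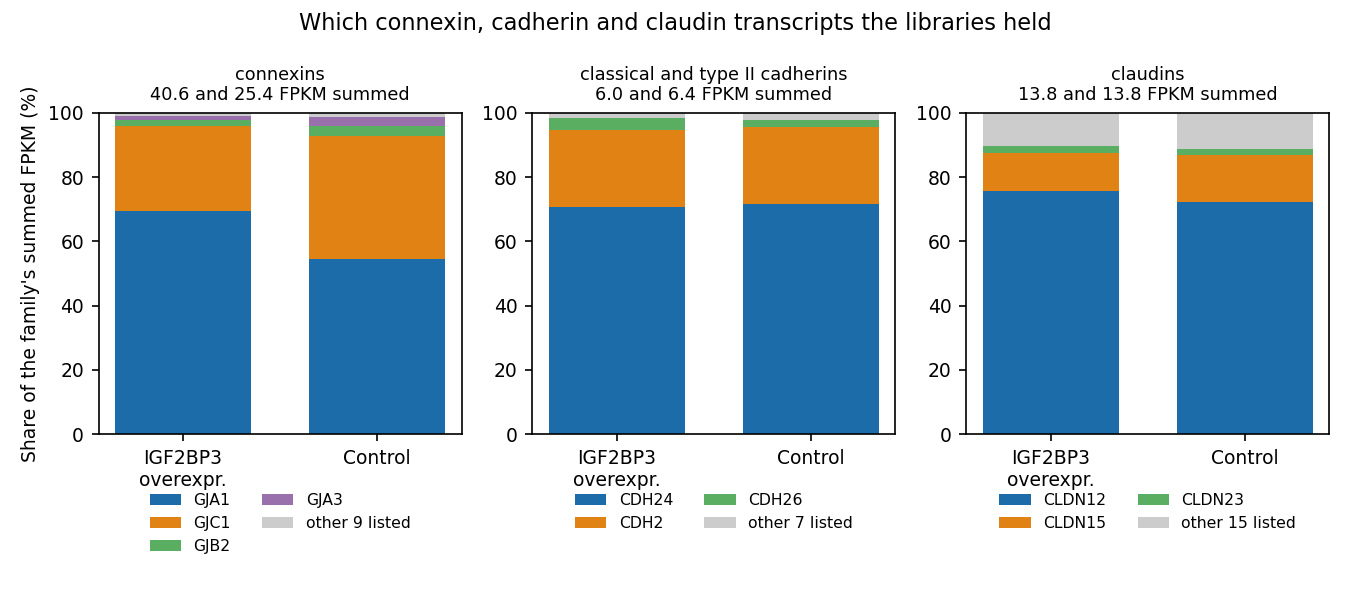
Share of the summed FPKM held by each gene of 3 families, in percent, with the IGF2BP3 overexpression library on the left and the control library on the right of each panel, 1 library each. GJA1 takes 69.4% and 54.5% of connexin FPKM, while the cadherin and claudin panels look alike in both libraries, led by CDH24 and CLDN12.

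OCLN (ENSG00000197822; chromosome 5, 69492292 to 69558104, plus strand) encodes occludin, a membrane protein of the tight junction strand. It had 1011 counts, 1.87 FPKM, in the overexpression library and 397 counts, 0.816 FPKM, in the control library. The CPM ratio was 2.31-fold (2.05 to 2.60), and halved counts gave 1.95 to 2.73. In the authors' deposited table the log2 fold change was 1.20. The level intervals, 1.76 to 1.99 FPKM in the overexpression library and 0.738 to 0.901 FPKM in the control library, did not overlap. The deposited FPKM implies a length of 11259 bases for OCLN, against 6761 exonic bases in GENCODE. OCLN shared 8.65% of its 31-base words with its pseudogene OCLNP1, which had 2 counts in each library.

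TJP1 (ENSG00000104067; chromosome 15, 29699367 to 29968865, minus strand) went the other way from its binding partner occludin. It had 122 counts, 0.225 FPKM, in the overexpression library and 320 counts, 0.655 FPKM, in the control library. The CPM ratio was 0.345 (0.278 to 0.426), and halved counts gave 0.253 to 0.466. In the authors' deposited table the log2 fold change was -1.54. On the log2 scale of CPM plus 1 the difference was -1.24, and on that of FPKM plus 1 it was -0.43, short of 1.5-fold. Per length, OCLN stood 8.33 times above TJP1 (6.90 to 10.1) in the overexpression library and 1.25 times (1.07 to 1.45) in the control library. With GENCODE exonic lengths these were 13.8 and 2.07 times. TJP1 shared 0.0973% of its words with any other gene.

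The related scaffold TJP3 (ZO-3) was low as well, with 40 counts, 0.210 FPKM, in the overexpression library and 60 counts, 0.350 FPKM, in the control library.

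Genes near these were compared with the 1.66% of all genes past the minimum that were 1.5-fold different in either direction. Within 1 Mb of OCLN, 10 other genes passed the count minimum. Of these, the kinase gene CDK7 had 351 counts in the overexpression library and 68 in the control library, a ratio of 4.67 (3.60 to 6.15). The checkpoint gene RAD17 had 254 counts and 472 counts, a ratio of 0.487 (0.417 to 0.569), so the 2 neighbours differed in opposite directions. The cyclin gene CCNB1, also within 1 Mb, had 24051 and 21406 counts, a ratio of 1.02 (0.999 to 1.04). MARVELD2, which encodes tricellulin and lies in the same window, has no row in the table used here. Within 1 Mb of TJP1, GOLGA8M had 192 and 60 counts, a ratio of 2.90 (2.16 to 3.94), and APBA2 had 369 and 196 counts, a ratio of 1.70 (1.43 to 2.04). These were 2 of 7 neighbours past the minimum, or 28.6%, and CDK7 and RAD17 were 20.0% of the 10 beside OCLN. None of the 4 neighbours of GJA1 was 1.5-fold different. Beside the other 6 genes only ARHGAP27, near GJC1, was, with 48 counts in the overexpression library and 13 in the control library. ARHGAP27 made up 2.38% of the genes past the minimum near GJC1, close to the share over all genes. Shares beside OCLN and TJP1 were above it but rest on few genes, so no contrast between loci is drawn. The aligner, the counting tool and the gene models are not stated, so whether counting or alignment sets the counts of OCLN, TJP1, CDK7 and RAD17, or the lack of a MARVELD2 row, was not tested. The levels and ratios of OCLN and TJP1 are therefore those of the deposited counts.

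**Figure D3:**
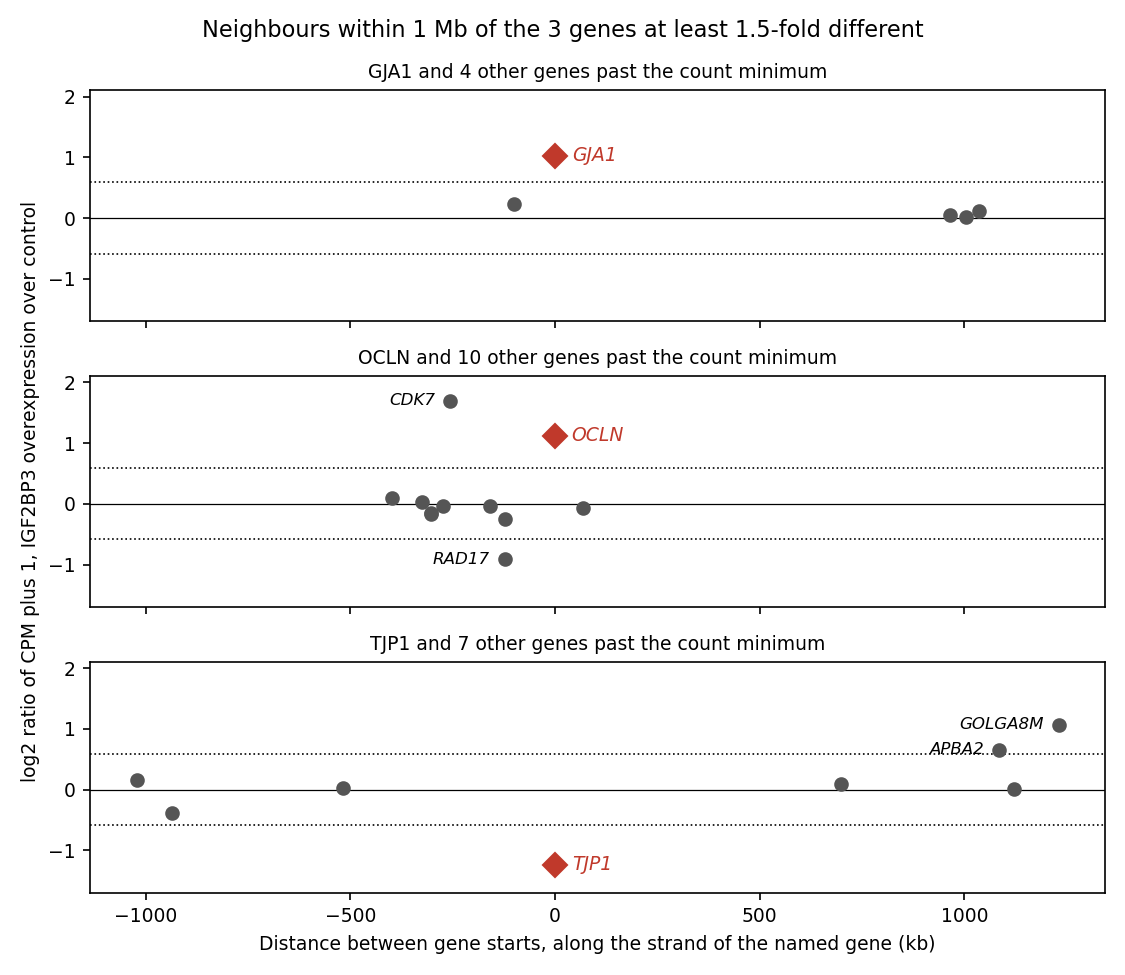
Log2 ratio of CPM plus 1, IGF2BP3 overexpression over control, against the distance between gene starts in kb for GJA1, OCLN and TJP1 (red diamonds) and each other gene past the count minimum that reaches within 1 Mb of them (grey points); dotted lines mark 1.5-fold. CDK7 and RAD17 stand apart beside OCLN, GOLGA8M and APBA2 beside TJP1, and no neighbour does so beside GJA1.

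Claudins form the tight junction strand itself. Of 24 claudin genes looked for, 18 were listed and 3 passed the count minimum. CLDN12 was at 10.5 FPKM in the overexpression library and 9.96 FPKM in the control library and held 75.8% and 72.3% of all claudin FPKM. CLDN15 followed at 1.65 and 1.99 FPKM, and CLDN23 at 0.299 and 0.289 FPKM. The epithelial claudins CLDN3 and CLDN4 had 0 and 27 counts in the overexpression library, against 2 and 18 counts in the control library. The list of other tight junction membrane genes had 7 past the minimum, among them VSIR, which encodes an immune receptor. The 3 highest stood between CLDN12 and CLDN15 in level. The adhesion molecule gene JAM3 was at 6.86 and 5.90 FPKM, and LSR, the lipolysis-stimulated receptor of tricellular contacts, at 6.38 and 7.17 FPKM. CXADR, the coxsackievirus and adenovirus receptor, was at 5.77 and 5.52 FPKM. All 23 plaque and polarity genes passed the minimum, 9 above 0 and 14 below on the log2 scale with a median of -0.10, and none was 1.5-fold different. YBX3, which encodes the ZO-1-associated factor ZONAB, was at 17.1 and 18.9 FPKM, the polarity kinase PRKCI at 16.4 and 16.2 FPKM, and the scaffold MPDZ at 14.2 and 13.2 FPKM.

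CDH1 (ENSG00000039068; chromosome 16, 68737225 to 68835548, plus strand) had 2 counts in each library, which is below the floor of 3 counts, so no ratio between libraries is given. Its level was 0.00686 FPKM in the overexpression library and 0.00762 FPKM in the control library. The upper bounds of the counting intervals were 0.0248 and 0.0275 FPKM, and 0.0382 and 0.0425 FPKM with halved counts. An antisense gene covers 5.62% of its exonic bases. E-cadherin mRNA was thus at the limit of detection in both cultures.

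CDH2 (ENSG00000170558; chromosome 18, 27950966 to 28177446, minus strand) had 597 counts, 1.45 FPKM, in the overexpression library and 566 counts, 1.53 FPKM, in the control library. The CPM ratio was 0.955 (0.850 to 1.07), an interval that includes 1-fold. Per length, CDH2 stood 211 times above CDH1 (58.2 to 1749) in the overexpression library and 200.3 times above it (55.2 to 1658) in the control library. Both ratios rest on 2 CDH1 counts per library, and no interval from halved counts is given for them. The deposited FPKM implies a length of 8583 bases for CDH2, against 4950 in GENCODE, so ratios of CDH2 to other genes shift with the length used. An antisense gene with 4 and 0 counts covers 2.75% of its exonic bases. Of 20 other cadherin genes, 8 were listed and 2 passed the minimum. CDH24, a type II cadherin, was at 4.25 FPKM in the overexpression library and 4.58 FPKM in the control library, and held 70.6% and 71.8% of the cadherin FPKM, against 24.1% and 24.0% for CDH2. CDH26 had 61 and 31 counts, a CPM ratio of 1.78 (1.14 to 2.84), and CDH15 had 12 and 14 counts. The cadherin mRNA of these cultures was thus mainly from CDH24 and CDH2.

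CTNNB1 (ENSG00000168036; chromosome 3, 41194741 to 41260096, plus strand), which encodes beta-catenin, the link between cadherins and alpha-catenin and also a Wnt signal carrier, was the most abundant of the 9 genes. It had 20534 counts, 36.4 FPKM, in the overexpression library and 17657 counts, 34.8 FPKM, in the control library. Its CPM ratio was 1.05-fold (1.03 to 1.07). JUP (ENSG00000173801; chromosome 17, 41754604 to 41786931, minus strand) encodes plakoglobin, the relative of beta-catenin found in both adherens junctions and desmosomes. It had 806 counts, 3.40 FPKM, in the overexpression library and 543 counts, 2.54 FPKM, in the control library, a CPM ratio of 1.34-fold (1.20 to 1.501), with 1.15 to 1.57 for halved counts. The intervals of both genes lay above 1-fold but neither gene was 1.5-fold different. Per length, CTNNB1 stood 10.7 times above JUP (9.98 to 11.5) in the overexpression library and 13.7 times (12.5 to 14.9) in the control library. CTNNB1 also exceeded its partner CDH2, by 25.1 times (23.1 to 27.3) and 22.8 times (20.9 to 24.8).

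**Figure D4:**
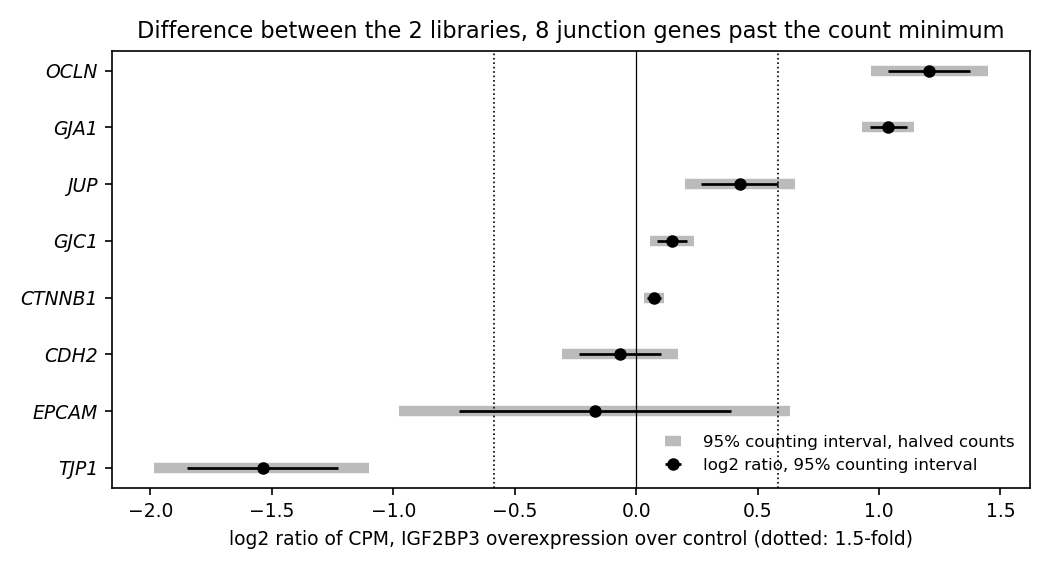
Log2 ratio of CPM, IGF2BP3 overexpression over control, for the 8 genes past the count minimum, with 95% counting intervals from the deposited counts (black) and from halved counts (grey); dotted lines mark 1.5-fold. OCLN at 2.31-fold and GJA1 at 2.05-fold lie right of the upper line and TJP1 at 0.345 left of the lower one, while the intervals of CDH2 and EPCAM cross 1-fold.

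Plaque partners of the cadherins were abundant. Vinculin (VCL), an actin-binding protein, was at 113 FPKM in the overexpression library and 106 FPKM in the control library. The alpha-catenin gene CTNNA1 was at 63.1 and 60.7 FPKM and its relative CTNNAL1 at 41.7 and 39.4 FPKM. Of 16 such genes past the minimum, 10 were above 0 and 6 below, with a median log2 ratio of 0.07, and none was 1.5-fold different. All 14 genes of the beta-catenin destruction complex and its partners that were listed passed the minimum, with a median of 0.08 and none 1.5-fold different. FBXW11, a ubiquitin ligase subunit, was at 21.6 and 20.3 FPKM, the kinase gene CSNK1A1 at 18.7 and 16.6 FPKM and GSK3B at 7.66 and 7.28 FPKM.

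Desmosomes anchor intermediate filaments through desmosomal cadherins, plakoglobin and desmoplakin. PERP, a membrane protein of desmosomes, was at 38.4 FPKM in the overexpression library and 39.8 FPKM in the control library, desmoplakin (DSP) at 17.8 and 15.6 FPKM and the plakophilin PKP4 at 14.1 and 14.3 FPKM. Of 15 desmosome genes looked for, 11 were listed and 7 passed the minimum, with a median log2 ratio of 0.01 and none 1.5-fold different. DSP and PERP mRNA was thus present at levels above those of CDH2 and OCLN.

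EPCAM (ENSG00000119888; chromosome 2, 47345158 to 47387601, plus strand), an adhesion molecule of most epithelia and carcinomas, had 56 counts, 0.480 FPKM, in the overexpression library and 57 counts, 0.543 FPKM, in the control library. Its CPM ratio was 0.889 (0.604 to 1.31), so a difference was not detectable at this depth. EPCAM is cut by the membrane protease ADAM17, which was at 2.94 FPKM in the overexpression library and 2.36 FPKM in the control library. FHL2, a partner of its cut tail, was at 3.96 and 4.46 FPKM.

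Over 7 other junction lists together, 103 of 140 genes were listed and 62 passed the count minimum, 31 above 0 and 31 below. The 62 include the immune receptor gene VSIR. None of the 62 was 1.5-fold different, where 1.66% of all genes were, a share that would come to about 1 gene in 62. The median absolute log2 ratio was 0.14 for the 62 and 0.10 for all genes. The highest was AMOT, an angiomotin, at 0.49, with 69 counts in the overexpression library and 32 in the control library. The lowest was TJP3 at -0.38. Without the added 1 CPM, AMOT, TJP3, CDH26 and the desmosomal cadherin gene DSC2 also passed 1.5-fold by the plain CPM ratio, 4 of the 62 or 6.45%, against 6.24% of all genes. All 4 had few counts: DSC2, for one, had 101 in the overexpression library and 59 in the control library.

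**Figure D5:**
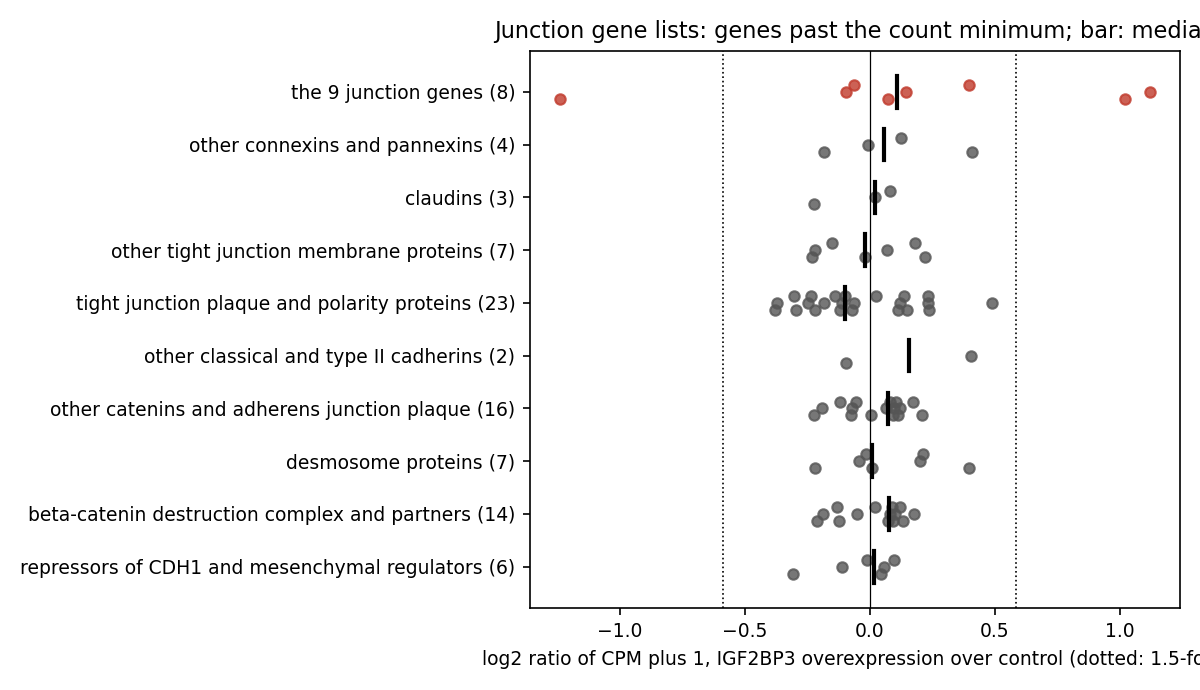
Log2 ratio of CPM plus 1, IGF2BP3 overexpression over control, for every gene past the count minimum in the 9 junction genes (red, of which 8 passed) and in 9 related lists (grey), with the number of genes in brackets, the median as a bar and 1.5-fold as dotted lines. GJA1, OCLN and TJP1 lie outside the lines and no gene of the other lists does.

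Of 11 repressors of CDH1 and mesenchymal regulators looked for, 9 were listed and 6 passed the minimum, and these 6 stood within 1.5-fold between the libraries. ZEB1, which represses CDH1 through E-boxes, was at 6.79 FPKM in the overexpression library and 6.62 FPKM in the control library, a CPM ratio of 1.03-fold (0.977 to 1.09). The E-box factor TCF3 was at 14.8 and 15.0 FPKM and SNAI1 at 1.43 and 1.60 FPKM. None of the 6 regulators of this list past the minimum was 1.5-fold different. Without the added 1 CPM, TWIST1, with 31 and 45 counts, had a plain CPM ratio of 0.624 (0.382 to 1.01). Of the epithelial regulators, the Krüppel-like factors KLF4 and KLF5 were at 2.89 and 2.76 FPKM and at 0.487 and 0.453 FPKM, and the grainyhead factor GRHL1 at 0.474 and 0.416 FPKM. The epithelial splicing factor genes ESRP1 and ESRP2 were both below the count minimum and went opposite ways. ESRP1 had 0 counts in the overexpression library and 10 in the control library, and ESRP2 had 10 and 2.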

How the data were processed

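Poly(A) RNA was captured with oligo(dT) beads and made into libraries with dUTP in the double-stranded DNA and PCR, per the labels' protocols. The authors deposited whole-number counts, FPKM and a log2 fold change for each gene, per the file headers. The submitters' processing notes name GRCh38. Aligner, counting tool, strand setting and gene models: not given in the sources used here. No listed gene had 0 counts in both libraries. Even numbers made up 63.3% of the counts between 1 and 20 in the overexpression library and 64.1% in the control library, so intervals are also given from halved counts, as if both mates of a pair had been counted.

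Counts were scaled by TMM (edgeR 4.0.16, R 4.3.3). Differences are log2 ratios of CPM + 1 with overexpression on top, for genes with a minimum of 50 counts over both libraries. Ratios without the added constant carry exact (Clopper-Pearson) 95% intervals, and levels exact Poisson ones. A count of 3, the floor, equals 0.0627 CPM in the overexpression library and 0.0692 CPM in the control library. The ratio functions were tested on simulated data. No p-value was computed, as there was 1 library per group. The labels mention no molecular identifiers, so PCR copies are not told apart and intervals cover counting error only. Gene positions, exons and 31-base words came from GENCODE release 29, which held 94.2% of the listed IDs. Genes named were the 9 described, the 3 highest of every other list by mean FPKM, any list member at least 1.5-fold different, and the copies and relatives of the 9 (some genes this rule names are not reported here); GJA3, AMOT, CLDN3, CLDN4, DSC2, ESRP1, FN1, LCP1, MARVELD2, WFDC2 and the neighbours on the chromosome were named after their values were seen. With 2 libraries, likeness of pattern between genes cannot be measured, so no gene is named for it. The genes and lists were chosen with earlier results of these data known. Python 3.11.15 with numpy 2.4.6, pandas 2.3.3, scipy 1.17.1 and matplotlib 3.10.9 and DESeq2 1.42.0 (size factors only) were also used.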

Additional observations from a re-analysis of the deposited data

How the results depend on the processing

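With 1 library per group, no setting can show how far replicate cultures would vary. GJA1, OCLN and TJP1 kept their direction when counts were scaled to library totals or with DESeq2's size factors, and under other pseudocounts, other count minimums, summing OCLN with its pseudogene, and FPKM plus 1. Log2 ratios that left the counting interval were those of OCLN, 0.66 on the FPKM plus 1 scale and 0.88 at a 5 CPM pseudocount, and of TJP1, -0.43 and -0.71 in the same order, where by construction the added constant weighs more in low genes. The number of the 9 genes at least 1.5-fold different was 3, and 2 with FPKM plus 1, where TJP1 fell short. It was 3 with a 2-fold threshold. Of all genes, 235 were 1.5-fold different, against 748 with a pseudocount of 0.1 CPM, 100 with 5 CPM and 126 with FPKM plus 1. Counting intervals lay on one side of 1-fold for 6 of the 9 genes, also from halved counts. Among the 6 was CTNNB1, at only 1.05-fold. No share over all genes is given beside that count, so nothing is read from it. With GENCODE exonic lengths, chosen after seeing the data, the levels of OCLN and CDH2 in both libraries and of CTNNB1 in the overexpression library left their counting intervals, and no ratio between libraries is affected. Depth limits CDH1 and EPCAM. No paired analysis was possible because each group has 1 library.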
